A study of Mus musculus with 2 samples.

Results

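Among CD8+ T cells stimulated for 30 h with the lowest amount of the peptide M9C, 0.2 pmol, cells with many Il2ra transcripts (Il2ra-high) were set against cells in which none was counted (Il2ra-negative), across all other genes. A cell was Il2ra-high when 3 or more unique molecular identifiers (UMIs, which tag single captured transcripts) of Il2ra were counted in it, and Il2ra-negative when the count was 0. Both groups were thus chosen by a measured value, so their difference in Il2ra is a description and not a result. Of 13439 barcodes in the series, 1633 carried the hashtag of this culture as their top hashtag with at least 20 counts and at least 80% of hashtag counts, 1595 of these had at most 10% mitochondrial UMIs, and 988 of those held 4000 to 9000 UMIs, while 222 held fewer and 385 more. Of the 988 cells, 167 (16.9%) were Il2ra-high and 296 (30.0%) were Il2ra-negative, 463 cells in all.

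All cells came from spleens of WT mice. They were cultured for 30 h on streptavidin-coated plates that carried biotinylated H-2Db MHC monomers loaded with 0.2, 2 or 20 pmol M9C or with 20 or 80 pmol L6F, or were rested without a stimulus. Each of the 6 cultures was stained with its own hashtag antibody, live cells were sorted with propidium iodide, and the 6 cultures shared 1 lane of a 10x Genomics run. Each condition was 1 culture, and the number of animals behind it is not given in the sources used here. No test between groups was therefore made at 0.2 pmol, where the intervals given are 95% intervals of counting error only.

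Il2ra encodes CD25, the alpha chain of the interleukin-2 (IL-2) receptor. The beta and gamma chains (Il2rb, Il2rg) carry the signal and the alpha chain raises the affinity for IL-2. The bound receptor activates the kinases Jak1 and Jak3 and the transcription factor STAT5, which in turn maintains Il2ra and switches on feedback inhibitors such as Cish and Socs2. In CD8+ T cells Il2ra is absent at rest and is induced through the antigen receptor, and cells that keep CD25 high are known to lean towards short-lived effector fates.

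The cells of this culture are known by the barcode of their hashtag antibody, which comes first below. The region before the Il2ra start site follows because Il2ra defined both groups. Regions before the RefSeq start sites of Batf3 and Irf8, 2 of the transcription factors described next, are also shown. Irf8 stayed below the 1.5-fold limit used there, and other factors had ratios as large, so the motifs below do not describe the higher genes as a set. They are 250 bases upstream of the RefSeq start on the plus strand of GRCm38.p6, at chr2:11642542-11642791 for Il2ra and chr8:120736108-120736357 for Irf8. For Batf3 only the first 30 bases of that window are printed, at chr1:191098164-191098193. GENCODE starts Batf3 further upstream, at 191097847, so these bases lie before the RefSeq start but inside the GENCODE gene. No promoter is shown for Socs2, Sh2d1a, Irf4 or Eomes. Capitals mark the kB motif GGGAATCCC, found in Il2ra, and the STAT motif TTCNNNGAA, found in Batf3 and at 2 places in Irf8. On either strand, the kB motif was in 0.301% of the 32851 windows of RefSeq promoters, the STAT motif in 7.02% and the AP-1 motif TGANTCA, found in none of the 3 windows, in 6.75%.
hashtag 4: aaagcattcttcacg
Il2ra: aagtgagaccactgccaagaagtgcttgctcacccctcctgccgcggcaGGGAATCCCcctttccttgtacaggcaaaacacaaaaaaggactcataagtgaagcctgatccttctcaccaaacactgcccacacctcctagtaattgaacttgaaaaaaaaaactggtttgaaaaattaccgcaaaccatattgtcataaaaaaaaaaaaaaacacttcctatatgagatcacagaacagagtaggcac
Batf3: tgccacgtgacTTCCACGAAgagcgggggc
Irf8: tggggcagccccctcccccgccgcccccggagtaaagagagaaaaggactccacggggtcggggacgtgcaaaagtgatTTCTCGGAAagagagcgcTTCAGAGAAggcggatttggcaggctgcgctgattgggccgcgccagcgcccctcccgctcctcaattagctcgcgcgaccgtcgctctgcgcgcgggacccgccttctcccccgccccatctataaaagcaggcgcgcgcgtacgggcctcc

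The split rests on few transcripts per cell. The 988 cells averaged 1.36 Il2ra UMIs, 70.0% of them (95% binomial interval 67.1 to 72.9) had at least 1, and Il2ra made up 205.8 counts per 1000000 UMIs (CPM). Cells with 0, 1 and 2 Il2ra UMIs numbered 296, 305 and 220, and cells with 3 to 7 numbered 102, 42, 14, 5 and 4. Of the Il2ra-high cells, 102 therefore sat just inside the limit, and the 220 cells with 2 UMIs just outside it. A count of 0 in the median Il2ra-negative cell allows up to 479.5 CPM, and 3 UMIs in the median Il2ra-high cell are 418.0 CPM, so single cells near the limit cannot be told apart by their counts. In the other cultures 67.4% of cells at 20 pmol and 67.5% at 2 pmol M9C had an Il2ra UMI, against 56.6% at 80 pmol and 60.2% at 20 pmol L6F. Among rested cells, which should lack Il2ra, 29 of 1583 (1.83%) had one at a median of 846.0 UMIs per cell, and only 8 of them reached 4000 UMIs, none with an Il2ra UMI, which for 8 cells allows a share of up to 37.5%.

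Il2ra-high cells were deeper than Il2ra-negative cells. The median UMI count was 7177 in Il2ra-high and 6256 in Il2ra-negative cells, and the median number of genes 2512 in Il2ra-high and 2286 in Il2ra-negative cells. The median mitochondrial share was 1.73% in Il2ra-high and 1.59% in Il2ra-negative cells, and the median share of ribosomal protein genes 24.7% in Il2ra-high and 25.6% in Il2ra-negative cells. Summed UMIs were 1178355 in Il2ra-high cells and 1874239 in Il2ra-negative cells, and values below are CPM of these sums without Il2ra. With no UMI counted, the level of a gene could still be up to 2.55 CPM in Il2ra-high cells and 1.60 CPM in Il2ra-negative cells. In sums of this kind, more cells with a transcript and more transcripts per cell give the same value.

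Both groups held CD8 T cells. All 7 CD8 T cell markers (Cd3e, Cd3d, Cd3g, Cd8a, Cd8b1, Trac and Trbc2) were detected, at a summed 3256 CPM in Il2ra-high and 3401 CPM in Il2ra-negative cells. The 6 regulatory T cell markers, included because those cells carry CD25 constantly, summed to 78.1 CPM in Il2ra-high and 81.6 CPM in Il2ra-negative cells, with the defining gene Foxp3 at 0 UMIs in both groups, as was Cd4. Macrophage or monocyte markers summed to 3.40 CPM in Il2ra-high cells and to 57.6 CPM in Il2ra-negative cells, where 105 of the 108 UMIs were Lyz2 in 1 cell. The 6 NK markers summed to 0 CPM in Il2ra-high and 14.9 CPM in Il2ra-negative cells, with 27 of 28 UMIs in 1 cell, and the 5 neutrophil markers to 0 CPM in Il2ra-high and 7.47 CPM in Il2ra-negative cells, with 13 of 14 in 1 cell. B cell markers were level, at 219.9 CPM in Il2ra-high and 226.2 CPM in Il2ra-negative cells, nearly all of it Ighm, with Ms4a1 at 0 in both groups. Gamma-delta T cell markers summed to 70.5 CPM in Il2ra-high and 57.1 CPM in Il2ra-negative cells. CD4 T cell markers gave 3 UMIs in Il2ra-high and 5 in Il2ra-negative cells, erythroid markers 2 in Il2ra-high and 5 in Il2ra-negative cells, basophil or mast cell markers 1 in each, and dendritic and platelet markers 0 in both. Among Cd4, Foxp3, Trdc, Cd79a, Lyz2 and Tyrobp, Trdc had 75 UMIs in Il2ra-high cells, Cd79a and Lyz2 1 each, and the others 0. Without cells that held a UMI of these 6 genes (a set that leaves out Ighm and most other markers), 113 Il2ra-high and 221 Il2ra-negative cells remained. Log2 ratios were then 1.55 for Batf3 and 0.85 for Socs2, described next.

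Genes other than Il2ra differed little between the groups. Of 5135 genes with a mean of at least 20 CPM over both groups, 94 (1.83%) were at least 1.5-fold higher in Il2ra-high cells with a counting interval above equality, and 41 (0.798%) were at least 1.5-fold lower with an interval below it. The median log2 ratio of all 5135 genes was 0.02. Intervals of any size of change lay above equality for 247 genes and below it for 149. Most genes past the limits were low, and 22 of the higher and 6 of the lower ones reached a mean of 50 CPM.

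**Figure D1:**
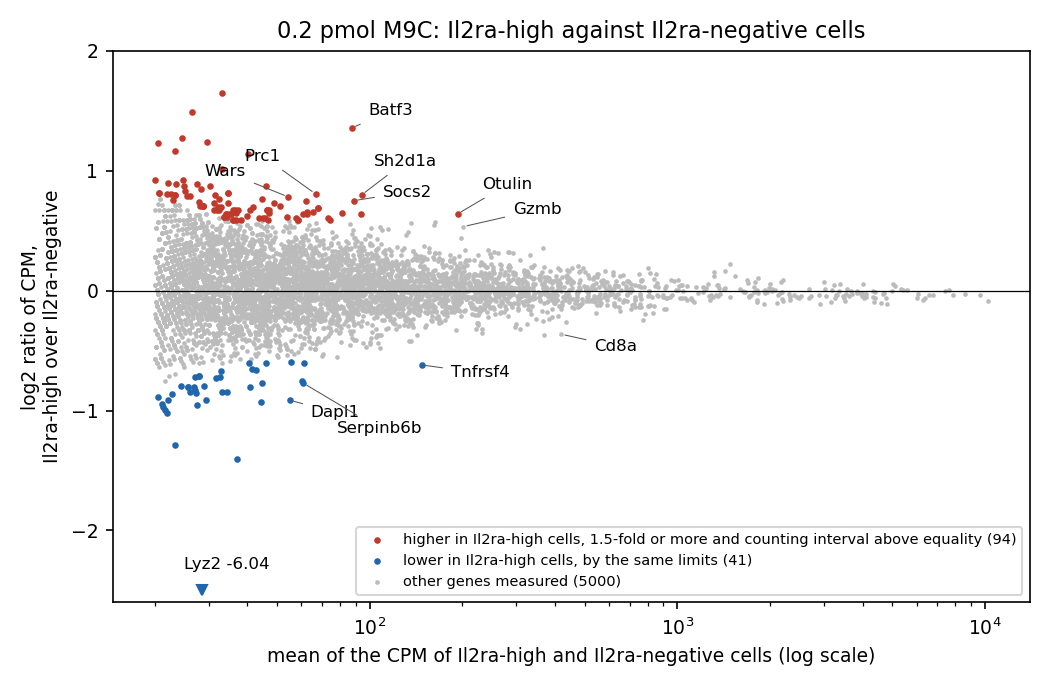
Each point is 1 of 5135 genes in the 0.2 pmol M9C culture, by the mean of its CPM in both groups (x axis, log scale) and its log2 ratio of CPM in Il2ra-high over Il2ra-negative cells (y axis), with the 94 higher genes in red and the 41 lower genes in blue. Batf3 at 1.36 stands above all other genes of similar level, and Lyz2, with 105 UMIs in 1 Il2ra-negative cell, lies below the axis at -6.04.

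Among transcription factors Batf3 led by far. Batf3, an AP-1 family partner of Jun proteins that favours survival of CD8+ T cells into memory, stood at 125.7 CPM in Il2ra-high cells and 49.1 CPM in Il2ra-negative cells, 2.56-fold higher (1.96 to 3.36). Its 148 UMIs in Il2ra-high cells came from 71 cells, with at most 7 in a cell, and its 92 UMIs in Il2ra-negative cells from 57 cells. After every cell was thinned to 3900 UMIs, 34.7% of Il2ra-high cells (27.5 to 42.5) and 14.2% of Il2ra-negative cells (10.4 to 18.7) had a Batf3 UMI, against 42.5% of Il2ra-high and 19.3% of Il2ra-negative cells before thinning. Both intervals count cells of 1 culture and are no test, and Batf3 was named for its ratio in these same cells. The rested cells were too shallow to give a background at this depth. Batf3 lies on chromosome 1 at 191097847-191108945, plus strand, in the GRCm38 annotation of GENCODE.

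The 2 interferon regulatory factors that pair with BATF proteins were also higher. Irf4, whose level follows the strength of the antigen receptor signal, stood at 135.0 CPM in Il2ra-high and 94.4 CPM in Il2ra-negative cells (1.43-fold, 1.15 to 1.78). Irf8, needed for effector differentiation of CD8+ T cells, stood at 155.4 CPM in Il2ra-high and 110.4 CPM in Il2ra-negative cells (1.41-fold, 1.15 to 1.73). Eomes, a T-box factor of effector and memory cells, was 1.52-fold higher (1.07 to 2.17), just past the limit. Batf itself stood at 66.2 CPM in Il2ra-high and 51.8 CPM in Il2ra-negative cells, within counting error. Lef1, a factor of naive and memory precursor cells, stood at 40.8 CPM in Il2ra-high and 59.8 CPM in Il2ra-negative cells, while its relative Tcf7 was nearly level at 112.1 CPM in Il2ra-high and 117.9 CPM in Il2ra-negative cells. Over the list of 15 measured effector and memory transcription factors, 2 (Batf3 and Eomes) passed the 1.5-fold limit upwards and 0 downwards, with a median log2 ratio of 0.20 beside 0.02 for all genes. Of all 5135 genes, 1.83% passed it upwards and 0.798% downwards.

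Of the genes around the IL-2 receptor itself, no other chain differed between the groups beyond counting error. Il2rb stood at 103.6 CPM in Il2ra-high and 94.97 CPM in Il2ra-negative cells, and Il2rg at 101.9 CPM in Il2ra-high and 114.7 CPM in Il2ra-negative cells. Il2, the cytokine gene, was low in both groups, at 10.2 CPM in Il2ra-high and 9.60 CPM in Il2ra-negative cells. Stat5b stood at 17.8 CPM in Il2ra-high and 26.7 CPM in Il2ra-negative cells.

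STAT5 targets and feedback genes were mixed. Socs2, an inhibitor of cytokine receptor signals, stood at 111.2 CPM in Il2ra-high and 66.2 CPM in Il2ra-negative cells (1.68-fold, 1.31 to 2.17). Cish, another STAT5-induced inhibitor, stood at 77.3 CPM in Il2ra-high and 56.6 CPM in Il2ra-negative cells (1.37-fold, 1.02 to 1.83), and Pim1, a STAT5-induced survival kinase, at 271.7 CPM in Il2ra-high and 220.4 CPM in Il2ra-negative cells (1.23-fold, 1.06 to 1.43). Socs1, an inhibitor of cytokine and interferon signals, went the other way at 20.4 CPM in Il2ra-high and 38.4 CPM in Il2ra-negative cells, 1.89-fold lower (1.17 to 3.13). Of the 14 measured genes of the list, 1 (Socs2) passed the limit upwards and 2 (Socs1 and Tnfrsf4) downwards, with a median log2 ratio of 0.09. Among all 5135 genes, 1.83% passed upwards and 0.798% downwards.

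Effector and surface genes split in direction too. Sh2d1a, the adaptor SAP of the SLAM receptors, stood at 119.7 CPM in Il2ra-high and 68.8 CPM in Il2ra-negative cells (1.74-fold, 1.36 to 2.23). Otulin, an enzyme that removes linear ubiquitin chains, stood at 235.2 CPM in Il2ra-high and 151.0 CPM in Il2ra-negative cells (1.56-fold, 1.32 to 1.85), but its log2 ratio of 0.64 was 0.33 among cells of 5000 to 8000 UMIs. Gzmb, the cytotoxic protease granzyme B, stood at 237.7 CPM in Il2ra-high and 164.3 CPM in Il2ra-negative cells (1.45-fold, 1.23 to 1.71), short of the 1.5-fold limit. Il12rb2, the signalling chain of the IL-12 receptor, stood at 41.6 CPM in Il2ra-high and 26.7 CPM in Il2ra-negative cells (1.56-fold, 1.03 to 2.36), a call kept in 5 of 15 alternative settings. Wars, the tryptophan tRNA ligase, stood at 68.8 CPM in Il2ra-high and 40.02 CPM in Il2ra-negative cells (1.72-fold, 1.24 to 2.39), and Slc7a1, a transporter of basic amino acids, at 89.2 CPM in Il2ra-high and 59.2 CPM in Il2ra-negative cells (1.51-fold, 1.14 to 1.98), a call kept in 7 of 15.

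Lower in Il2ra-high cells were a naive-cell gene, a costimulatory receptor and a chain of the CD8 coreceptor. Dapl1, a gene of naive and resting T cells, stood at 38.2 CPM in Il2ra-high and 72.0 CPM in Il2ra-negative cells, 1.89-fold lower (1.34 to 2.70). Tnfrsf4, the costimulatory receptor OX40, stood at 116.3 CPM in Il2ra-high and 178.7 CPM in Il2ra-negative cells, 1.54-fold lower (1.26 to 1.89). Serpinb6b, a protease inhibitor of cytotoxic cells, stood at 45.0 CPM in Il2ra-high and 76.8 CPM in Il2ra-negative cells, 1.71-fold lower (1.24 to 2.39). Cd8a, the alpha chain of the CD8 coreceptor, stood at 366.0 CPM in Il2ra-high and 470.6 CPM in Il2ra-negative cells, 1.29-fold lower (1.15 to 1.45), whereas the beta chain gene Cd8b1 was nearly level at 425.4 CPM in Il2ra-high and 407.1 CPM in Il2ra-negative cells. Ly6c2 was 1.52-fold lower (1.11 to 2.11), but 29.0% of its UMIs in Il2ra-negative cells came from 1 cell, its log2 ratio was 0.069 without cells holding a UMI of those 6 genes, and the near-identical Ly6c1 makes the assignment of its reads uncertain. The ubiquitin-pathway genes Ube2f and Ube2e3 and the GTPase gene Cdc42 were also among the 15 lowest by the rule for named genes, at 45.0, 56.9 and 321.0 CPM in Il2ra-high cells against 75.8, 83.2 and 414.0 CPM in Il2ra-negative cells.

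Cell cycle genes divided by phase. Of all 5135 genes, 2754 had a ratio above 1 and 1.83% passed the limit upwards. Of 25 measured G2 and M phase genes, 21 had a ratio above 1, 4 (Prc1, Cenpf, Cenpe and Aurkb) passed the limit upwards and 0 downwards, and the median log2 ratio was 0.29. Prc1, which bundles the microtubules of the dividing cell, stood at 84.9 CPM in Il2ra-high and 48.6 CPM in Il2ra-negative cells (1.75-fold, 1.30 to 2.35). Mki67, a proliferation marker, stood at 270.0 CPM in Il2ra-high and 213.4 CPM in Il2ra-negative cells, and Top2a, a DNA topoisomerase of dividing cells, at 411.8 CPM in Il2ra-high and 322.3 CPM in Il2ra-negative cells. Of 27 S phase genes, 5 had a ratio above 1, none passed a limit, and the median log2 ratio was -0.07. Ccne1, cyclin E of the entry into S phase, stood at 116.3 CPM in Il2ra-high and 155.8 CPM in Il2ra-negative cells. Within cells below the culture's median of cell cycle UMIs the Batf3 and Socs2 log2 ratios were 1.53 and 0.95, and within the other cells 1.19 and 0.54.

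The other lists had few genes past the limits, beside 1.83% of all 5135 genes upwards and 0.798% downwards. Counts of 0 or 1 in lists this small say little about a list. Of 4 measured NFAT and calcium linked genes all 4 had a ratio above 1 and 0 passed the limit (median log2 ratio 0.27), led by Irf4 and by Rgs1, a brake on chemokine receptor signals, at 103.6 CPM in Il2ra-high and 80.6 CPM in Il2ra-negative cells. Of 16 activation surface receptors 1 (Il12rb2) was higher and 1 (Tnfrsf4) lower, of 9 cytotoxic effector genes 0 were higher and 1 (Serpinb6b) lower, and of 14 naive and quiescence genes 0 were higher and 1 (Dapl1) lower. Of 7 cytokines and chemokines none passed a limit, with Ccl4 at 304.8 CPM in Il2ra-high and 265.2 CPM in Il2ra-negative cells and Ifng at 38.2 CPM in Il2ra-high and 36.8 CPM in Il2ra-negative cells. Of 9 trafficking receptors and integrins 1 had a ratio above 1 and none passed a limit (median log2 ratio -0.24). Of 8 integrated stress response genes Slc7a1 passed the limit upwards, of 14 interferon responsive genes Socs1 passed it downwards, and of 17 memory-like and cytoskeletal genes Eomes and Lgals3 passed it upwards and Ly6c2 downwards. In Lgals3, 20.2% of the UMIs in Il2ra-high cells came from 1 cell. None of the 23 Myc and ribosome biogenesis, 8 Erk-linked and immediate-early, 12 NF-kB, 14 glycolysis, 21 cholesterol synthesis, 19 serine, one-carbon and nucleotide synthesis, 10 apoptosis, 9 heat shock, 5 inhibitory receptor or 4 IL-2 receptor genes measured passed a limit.

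**Figure D2:**
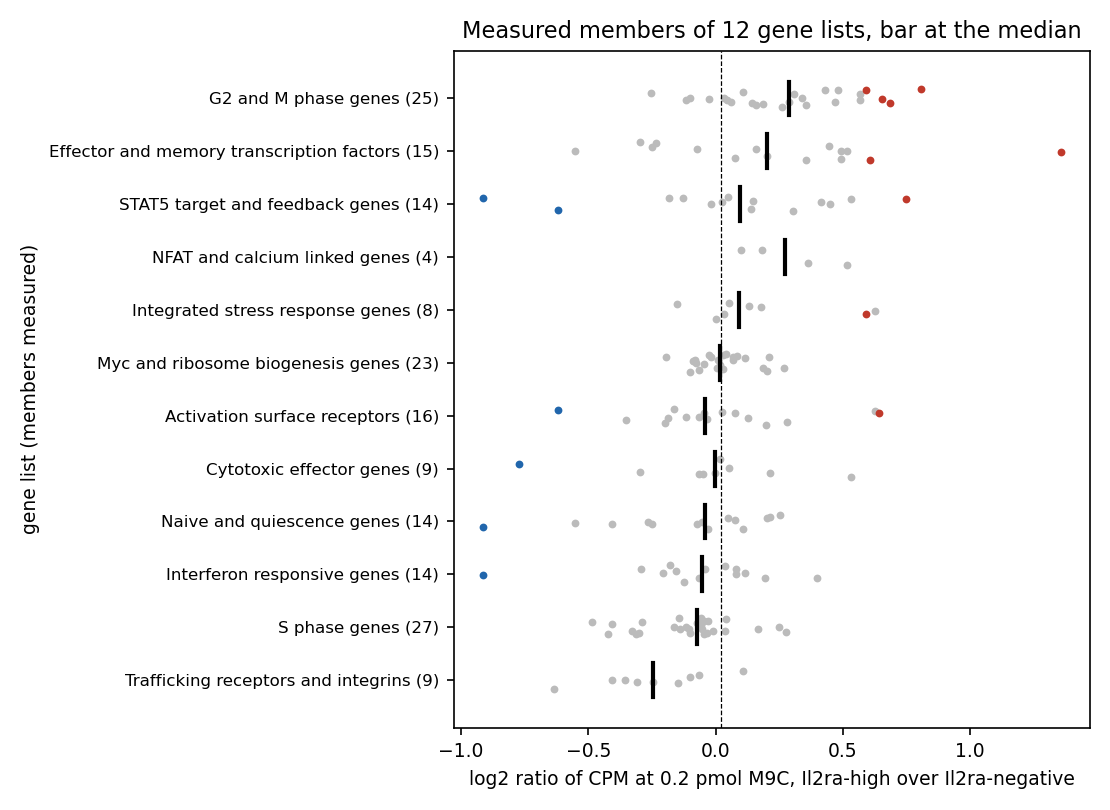
Each point is a measured gene of 1 of 12 lists, by its log2 ratio of CPM in Il2ra-high over Il2ra-negative cells at 0.2 pmol M9C, in red or blue where it passed the 1.5-fold limit upwards or downwards. Black bars are list medians and the dashed line is the median of all genes at 0.02. By median the G2 and M phase genes lie furthest to the right of the 12 lists, at 0.29, next to the NFAT and calcium linked genes at 0.27.

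The values on either side of the limit followed the same order as the 2 groups for Batf3. Its level was 49.1, 76.2, 105.3 and 128.4 CPM in cells with 0, 1, 2 and 3 to 4 Il2ra UMIs and 109.8 CPM in the 23 cells with 5 or more. Just inside the limit, in cells with 3 UMIs, it stood at 142.1 CPM, and just outside it, in cells with 2, at 105.3 CPM. Socs2 stood at 66.2, 93.1, 95.1, 109.5 and 121.4 CPM over the same 5 steps, and Otulin at 151.0, 196.2, 213.2, 232.9 and 248.5 CPM. Gzmb was highest in the middle, at 164.3, 244.5, 287.4, 254.8 and 138.7 CPM. Tnfrsf4 stood at 178.7, 145.9, 141.0 and 107.5 CPM up to 3 to 4 UMIs and at 167.6 CPM in the cells with 5 or more, so that its log2 ratio of -0.62 was -0.09 with those cells alone against Il2ra-negative cells. Median UMIs per cell also increased along the steps, at 6256, 6636, 7043, 7096 and 7952, and their part in these values was not tested beyond the depth-matched values given here.

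**Figure D3:**
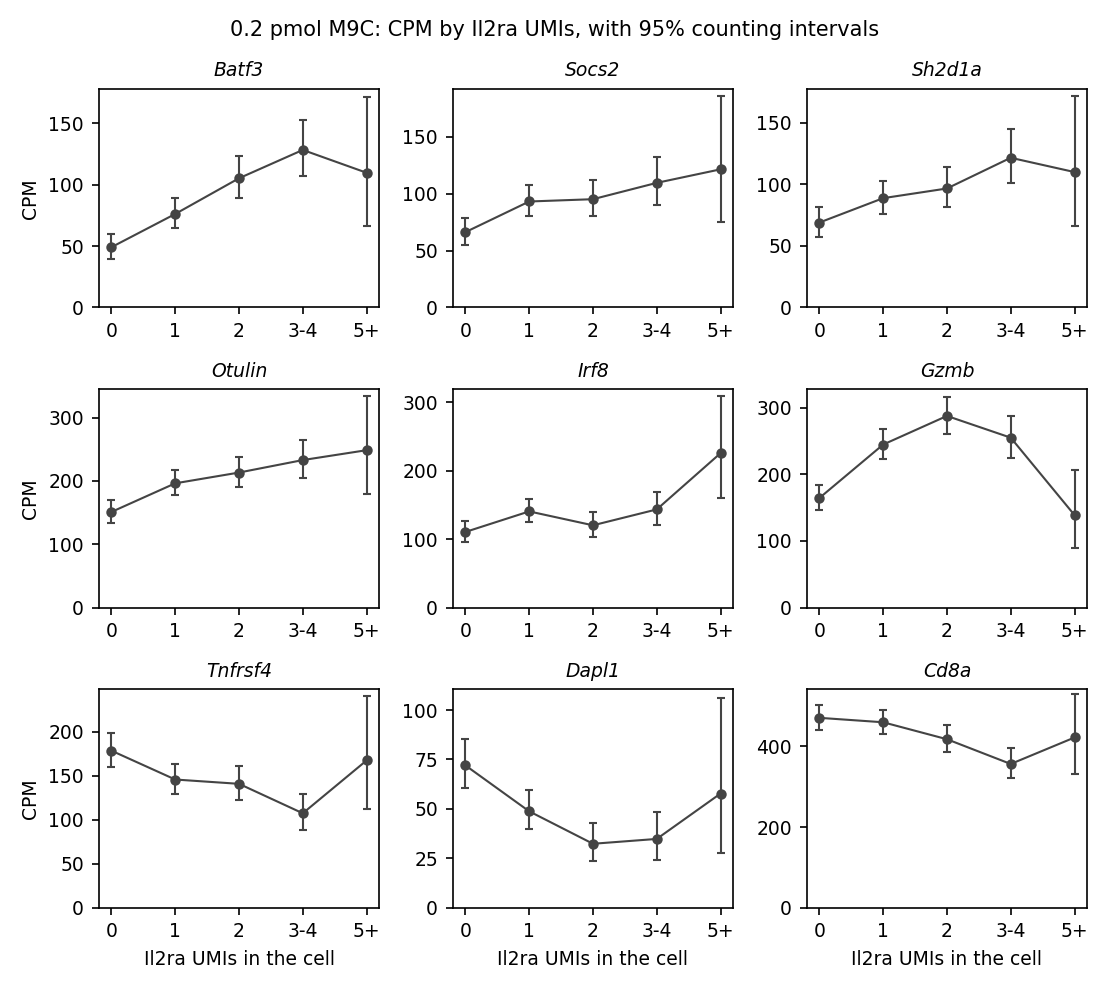
Points are CPM of 9 genes in cells of the 0.2 pmol M9C culture with 0, 1, 2, 3 to 4 and 5 or more Il2ra UMIs (x axis), with 95% counting intervals, and each y axis starts at 0. Batf3 reaches 128.4 CPM at 3 to 4 UMIs against 49.1 CPM at 0, while Gzmb peaks at 2 UMIs with 287.4 CPM.

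The same split was then made in the other 4 stimulated cultures, whose cells the choice of these 463 cells did not use. They gave 151 Il2ra-high and 384 Il2ra-negative cells at 20 pmol M9C and 155 Il2ra-high and 353 Il2ra-negative cells at 2 pmol M9C. The L6F cultures gave 141 Il2ra-high and 623 Il2ra-negative cells at 80 pmol and 206 Il2ra-high and 640 Il2ra-negative cells at 20 pmol. In edgeR's quasi-likelihood test on UMIs summed per culture and group, with culture as a block, 51 of 8133 genes (0.627%) rose and 122 (1.5%) fell in Il2ra-high cells at a Benjamini-Hochberg adjusted p under 0.05. The 4 cultures had different stimuli and served as the replicates. Without TMM scaling, which moved the median of all genes to 0.03 on the log2 scale, 89 rose and 66 fell, so the balance of higher and lower genes depends on the scaling. Without the culture block 1 gene (Batf3) rose and 6 fell. Leaving out the 20 pmol L6F culture left 9 genes that rose and 25 that fell, and leaving out 80 pmol L6F left 64 that fell. Among cells of 6000 to 8000 UMIs, 39 rose and 117 fell.

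Markers of some other cell types were lower in Il2ra-high cells of these cultures, and those of others were not. The 5 erythroid markers had 1, 1, 2 and 2 UMIs in Il2ra-high cells at 20 and 2 pmol M9C and 80 and 20 pmol L6F, against 77, 290, 74 and 75 in Il2ra-negative cells. At 20 pmol L6F the macrophage or monocyte markers had 3 UMIs in Il2ra-high and 242 in Il2ra-negative cells, the neutrophil markers 0 in Il2ra-high and 81 in Il2ra-negative cells, and the platelet markers 1 in Il2ra-high and 69 in Il2ra-negative cells. Of these, 1 cell held 235, 1 cell all 81 and 1 cell 67, and 1 cell held 253 of the 290 erythroid UMIs at 2 pmol M9C. CD4 T cell markers had 4, 3, 4 and 4 UMIs in Il2ra-high cells (3.78, 2.66, 4.20 and 2.80 CPM). In Il2ra-negative cells they had 7, 4, 8 and 7 UMIs (2.87, 1.74, 2.08 and 1.75 CPM). The counts in Il2ra-high cells lie near the floor of 3 counts, so no direction can be read from them. Gamma-delta T, regulatory T and NK markers went both ways. Without cells holding a UMI of Cd4, Foxp3, Trdc, Cd79a, Lyz2, Tyrobp, Fcer1g, Car2, Hba-a1, Hbb-bs or Mcpt8, 42 genes rose and 104 fell, and the log2 fold change was 1.10 for Batf3 and 0.81 for Socs2. In the same order of cultures, this left out 45 of 151, 49 of 155, 46 of 141 and 76 of 206 Il2ra-high cells. It also left out 97 of 384, 94 of 353, 237 of 623 and 247 of 640 Il2ra-negative cells. Most UMIs of these genes in Il2ra-high cells were Trdc (64, 75, 87 and 131). Whether the cells left out were of another type was not tested.

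Batf3 and Socs2 rose in these cultures too. Batf3 had 69.8, 97.6, 100.8 and 118.9 CPM in Il2ra-high cells at 20 and 2 pmol M9C and 80 and 20 pmol L6F, against 21.7, 47.8, 34.9 and 48.9 CPM in Il2ra-negative cells of the same cultures. Every Il2ra-high value was above every Il2ra-negative value, and the log2 fold change was 1.30 (SE 0.11, adjusted p = 1.7e-13). Socs2 had 76.4, 73.7, 187.9 and 148.3 CPM in Il2ra-high cells and 32.8, 45.6, 88.4 and 104.8 CPM in Il2ra-negative cells, higher in 4 of 4 cultures although the ranges overlapped, with a log2 fold change of 0.78 (SE 0.10, adjusted p = 8.9e-08). Irf8 had 168.0, 202.3, 166.9 and 157.4 CPM in Il2ra-high cells and 132.0, 144.6, 104.3 and 104.8 CPM in Il2ra-negative cells, again without overlap (log2 fold change 0.49, SE 0.07, adjusted p = 8.4e-06).

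Several genes that had stood below the 1.5-fold limit at 0.2 pmol also passed this test. Irf4 rose with a log2 fold change of 0.48 (SE 0.09), Pim1 with 0.39 (SE 0.06), Cish with 0.57 (SE 0.11) and Bms1, a ribosome assembly factor, with 0.27 (SE 0.07). Irf4 lost its call without 20 pmol L6F, and Bms1 without either L6F culture, among cells of 6000 to 8000 UMIs, without cells holding other types' UMIs, with 2 or more Il2ra UMIs as the high group and with DESeq2. Sh2d1a rose with 0.41 (SE 0.10, adjusted p = 0.015), but was nearly level at 20 pmol M9C, where it had 68.9 CPM in Il2ra-high and 66.0 CPM in Il2ra-negative cells, and lost its call without either L6F culture, among cells of 6000 to 8000 UMIs and without cells holding other types' UMIs. Cd8a fell with a log2 fold change of -0.31 (SE 0.05, adjusted p = 5.4e-05) and was lower in 4 of 4 cultures, but had -0.18 and no call among cells of 6000 to 8000 UMIs. Dapl1 narrowly missed the limit at -0.37 (adjusted p = 0.052). Gzmb at 0.12 (adjusted p = 0.42), Otulin at 0.19 (adjusted p = 0.12), Prc1 at 0.11 (adjusted p = 0.68) and Serpinb6b at -0.11 (adjusted p = 0.78) did not pass. Wars at -0.07 (adjusted p = 0.87), Lgals3 at 0.04 (adjusted p = 0.96) and Ube2f at 0.05 (adjusted p = 0.90) did not pass either.

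Over the other 4 cultures 4028 of all 8133 genes had a positive log2 fold change. Of the 94 genes higher at 0.2 pmol, 69 had a positive log2 fold change over the other 4 cultures and 5 were called there (Batf3, Socs2, Sh2d1a, Slc7a1 and Cenpe), which are 5 of those 94 and 5 of the 51. Of the 41 lower genes 40 were tested, 23 had a negative log2 fold change and 5 were called (Ifitm3, Ifitm2, Serpina3g, Mndal and Ly6c2), 5 of the 41 and 5 of the 122. Without cells holding other types' UMIs, the log2 fold change over the other 4 cultures was 0.40 for Ifitm3 and 0.042 for Serpina3g. Read from the other side, 47 of the 51 genes that rose were measured at 0.2 pmol, 43 of them had a ratio above 1 there (2754 of all 5135 genes did) and 21 a counting interval above equality, beside 4.81% of all genes measured. Of the 122 that fell 105 were measured, 86 had a ratio below 1 and 25 an interval below equality, beside 2.90% of all genes.

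**Figure D4:**
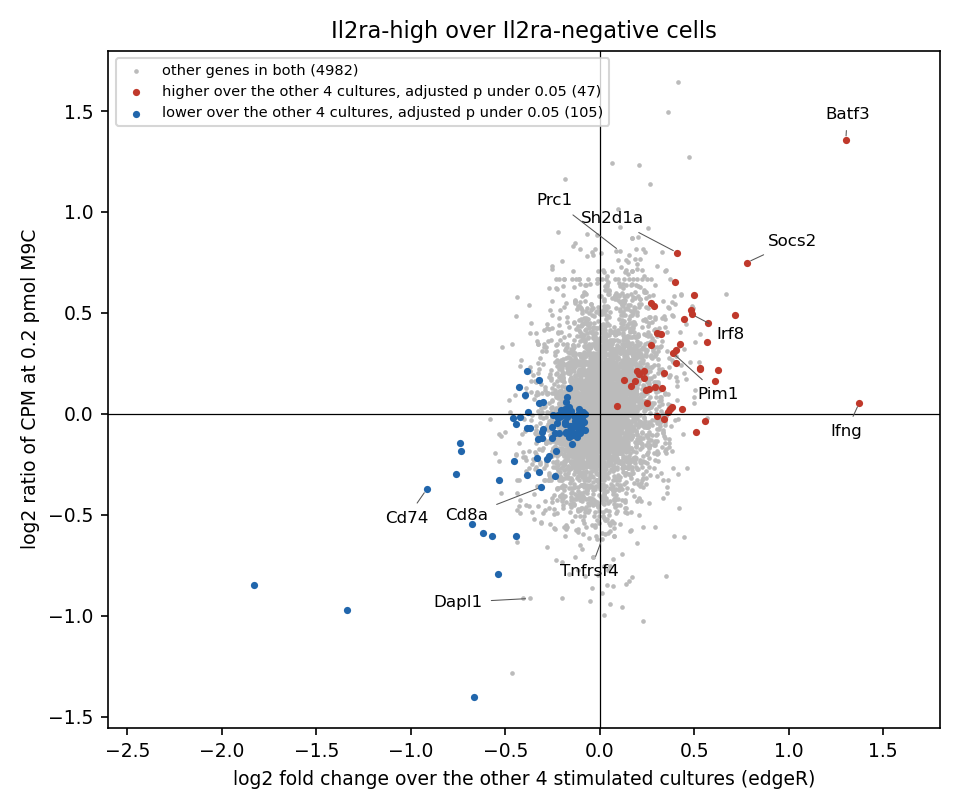
Each point is a gene measured at 0.2 pmol M9C and tested over the other 4 stimulated cultures (5134 genes), by its edgeR log2 fold change there (x axis) and its log2 ratio at 0.2 pmol (y axis), both as Il2ra-high over Il2ra-negative. Genes that rose over the other cultures are red and genes that fell are blue, and Batf3 lies at the far upper right with 1.30 and 1.36.

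The lists were counted over the other 4 cultures too, where 0.627% of all 8133 genes rose and 1.5% fell. Of 20 STAT5 target and feedback genes tested 5 rose (Cish, Socs2, Pim1, Ccnd2 and Icos) and 0 fell. Of 20 effector and memory transcription factors 3 rose (Irf4, Irf8 and Batf3) and 2 fell (Id2 and Tcf7). Eomes, past the limit at 0.2 pmol, was not among those that rose. Of 26 G2 and M phase genes 4 rose (Mki67, Cenpe, Ube2c and Hmmr) and 0 fell, with a median log2 fold change of 0.16, while 0 of 28 S phase genes passed either way. Of 16 interferon responsive genes 0 rose and 4 fell (Isg20, Igtp and Psmb8 among them), with a median of -0.26, where the 14 measured at 0.2 pmol had a median of -0.05. The median over all 8133 genes was 0.00.

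Of 12 cytokines and chemokines 4 rose (Ifng, Lta, Ccl3 and Ccl4) and 2 fell (Ccl1 and Xcl1). The Ifng rise, a log2 fold change of 1.37 (SE 0.18, adjusted p = 7.7e-07), rested on few cells. In Il2ra-high cells 1 cell held 63.3% of the 403 Ifng UMIs at 2 pmol M9C and 1 cell 89.5% of the 124 at 80 pmol L6F, and at 0.2 pmol Ifng had 38.2 CPM in Il2ra-high and 36.8 CPM in Il2ra-negative cells. Without cells holding other types' UMIs, which in Il2ra-high cells were mostly Trdc, Ifng and Ccl4 were no longer called. Lta and Ccl3 then had log2 fold changes of -0.0026 and -0.024, and the cause of these changes was not tested. Ccl4 also lost its call without either L6F culture, among cells of 6000 to 8000 UMIs and with DESeq2.

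Ribosomal protein genes were slightly lower as a group. Of 79 tested over the other 4 cultures 35 fell and 0 rose, with a median log2 fold change of -0.09 and a lowest of -0.18. Without TMM scaling 18 fell and 1 rose, with a median of -0.05 beside 0.03 for all genes. At 0.2 pmol 58 of 78 had a ratio below 1, 20 had a counting interval below equality and 2 above it, with a median log2 ratio of -0.04.

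Whether 0.2 pmol M9C differed from the other 4 cultures was tested as the interaction of Il2ra group and culture, with the spread of the other 4 taken for the single 0.2 pmol culture. With edgeR 0 of 7907 genes passed an adjusted p of 0.05 (lowest 0.999), and 335 (4.24%) had an unadjusted p under 0.05. With DESeq2 0 passed and 9 had an unadjusted p under 0.05. Among named genes, Tnfrsf4 had the lowest unadjusted p (0.0018, with the 0.2 pmol log2 fold change lower by a difference of -0.65), and Batf3 differed by 0.03 (SE 0.24). No gene is therefore called particular to 0.2 pmol here.

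**Figure D5:**
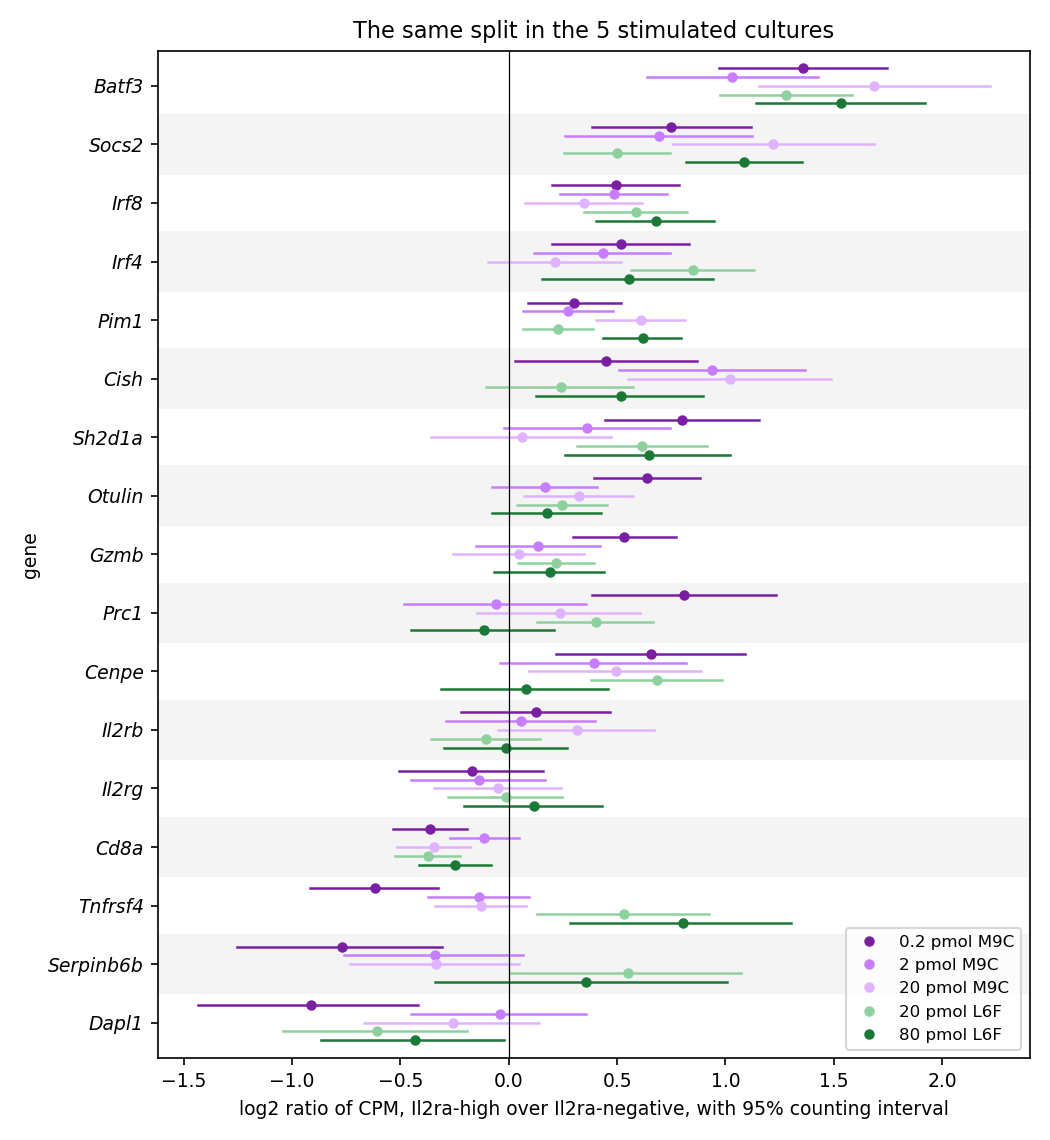
Points are log2 ratios of CPM in Il2ra-high over Il2ra-negative cells for 17 genes in the 5 stimulated cultures, with 95% counting intervals as lines, and the line at 0 marks equal levels. All 5 Batf3 intervals lie to the right of it, with log2 ratios between 1.03 and 1.68, and the Tnfrsf4 log2 ratios are negative in the 3 M9C cultures and positive in both L6F cultures.

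Tnfrsf4 and a few other genes followed Il2ra differently under the 2 peptides. In a test added after these values had been seen, of the Il2ra group by peptide over the other 4 cultures (L6F minus M9C, edgeR, 2 cultures each), 11 of 8133 genes (0.135%) had a larger and 13 (0.16%) a smaller log2 fold change in L6F cultures. Tnfrsf4 had 50.4 and 57.4 CPM in Il2ra-high cells against 28.9 and 39.7 CPM in Il2ra-negative cells at 80 and 20 pmol L6F. In M9C cultures it had 251.0 and 198.8 CPM in Il2ra-high cells against 274.6 and 218.9 CPM in Il2ra-negative cells at 20 and 2 pmol, with a difference in log2 fold change of 0.75 (SE 0.19, adjusted p = 0.022). The 0.2 pmol M9C culture, which this test did not use, also had the lower level in Il2ra-high cells. Tnfrsf4 had been named for that value, however, so it is no independent support. The doses of the peptides differed except for 20 pmol, with 1 culture each, where the Tnfrsf4 log2 ratio was 0.53 with L6F and -0.13 with M9C.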

How the data were processed

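UMI counts per gene and per hashtag were used as deposited by the authors, who per the submitters' processing notes ran bcl2fastq and Cell Ranger 6.0.1 on GRCm38 (mm10). All cultures shared 1 lane. Cells were assigned by hashtag, which removes multiplets of different cultures only; multiplets within a culture remain, and no doublet caller was run. The split, the gene lists and the tests were chosen with earlier results of these data known.

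UMIs were summed per culture and Il2ra group and scaled to 1000000 without Il2ra. At 0.2 pmol, log2 ratios have exact (Clopper-Pearson) 95% intervals, which cover counting error only, and a gene was past the limit at 1.5-fold with the interval excluding equality. The floor of a count of 0 is 3 counts. Thinning drew 3900 UMIs per cell (seed 1). Over the other cultures, edgeR 4.0.16 (quasi-likelihood, TMM, Benjamini-Hochberg, culture as block, since both groups are separate cells of the same culture) was run in R 4.3.3, with DESeq2 1.42.0 as an alternative. There is 1 culture per stimulus. With culture as a block, these p-values rest on the spread of the Il2ra-high against Il2ra-negative difference between cultures that differ in stimulus. The fit moderates the spread of each gene towards that of the other genes. A low p-value can therefore stand beside ratios that spread widely between cultures, as for Lgals7, or that rest on few cells, as for Ifng. Python used numpy 2.4.6, scipy 1.17.1 and pandas 2.3.3, and the scripts were checked on simulated data.

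Named genes are the 15 highest and 15 lowest at a mean of at least 50 CPM, ranked by the interval bound nearest 0, up to 3 of each list, and Il2ra, Il2, Il2rb and Il2rg. Others, such as Cish, Pim1, Cd8b1, Ifng, Ccl3, Ly6a, Lgals7, AW112010, Ms4a4b, Eomes, Batf, Tcf7, Mki67 and Top2a, were chosen after their values were seen. Ribosomal protein genes were grouped by symbol. Gene positions are from GENCODE and promoters from RefSeq GRCm38.p6. Alternatives changed scaling, depth, filters, the Il2ra split, hashtag purity, cell types, cell cycle and cultures.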

Additional observations from a re-analysis of the deposited data

Results flagged for a closer look

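A test of the difference between L6F and M9C cultures was added after the values had been seen (edgeR, 2 cultures each, L6F minus M9C). Among the genes described here, the log2 fold change between Il2ra-high and Il2ra-negative cells differed between peptides for 8. Of these, Ly6a, Lgals7, AW112010, Ms4a4b and Ccl3 had been chosen after their values in the same cultures were seen, so their p-values are no independent support. The difference was 0.79 for the chemokine gene Ccl4 (adjusted p = 1.8e-08), 0.68 for the chemokine gene Ccl3 (adjusted p = 0.0020) and 0.75 for Tnfrsf4 (adjusted p = 0.022). It was -0.60 for Ly6a (adjusted p = 1.2e-09), -0.59 for AW112010 (adjusted p = 9.9e-08), -0.64 for Ms4a4b (adjusted p = 3.4e-07) and -0.58 for Lgals1 (adjusted p = 0.00012). It was 1.90 for Lgals7 (adjusted p = 4.2e-09), whose log2 ratios within a peptide also spread widely, at 0.14 and 2.31 at 80 and 20 pmol L6F and at -2.76 and 0.44 at 20 and 2 pmol M9C. Ly6a had 451.5 and 524.6 CPM in Il2ra-high cells against 720.2 and 646.2 CPM in Il2ra-negative cells at 80 and 20 pmol L6F, and 537.9 and 626.6 CPM in Il2ra-high cells against 490.2 and 583.7 CPM in Il2ra-negative cells at 20 and 2 pmol M9C. At 0.2 pmol M9C the log2 ratios of Ly6a and Ms4a4b were both -0.05, and that of Lgals7 was 1.65.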

How the results depend on the processing

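At 0.2 pmol M9C the counts of 94 higher and 41 lower genes became 22 and 6 at a mean of 50 CPM, 197 and 116 without a filter on CPM, 9 and 4 at a 2-fold limit, and 55 and 21 with 2 or more Il2ra UMIs as the high group. The lower count was also 64 after thinning to 3900 UMIs and 65 in cells below the cell cycle median. Batf3 kept its call in 15 of 15 alternatives (log2 ratio 1.16 to 1.55), Sh2d1a in 14 (0.63 to 0.84), Dapl1 in 14, Socs2 in 13 (0.54 to 0.95), Otulin in 10 (0.27 to 0.72) and Tnfrsf4 in 9 (-0.79 to -0.09). With 5 or more Il2ra UMIs the log2 ratio was -0.59 for Lgals3 and -0.18 for Cenpf, and with Il2ra counted after thinning -0.89 for Lgals3 and 0.20 for Ifitm3. Without cells holding a UMI of another cell type it was 0.069 for Ly6c2 and 0.041 for Ifitm3, and in cells at or above the cell cycle median 2.63 for Ifitm3. Over the other 4 cultures, the counts of 51 genes that rose and 122 that fell were 4 and 31 with DESeq2, where 1383 genes had an adjusted p, 89 and 66 without TMM, 53 and 219 without a low-count filter, and 1 and 6 without the culture block that pairs both groups of a culture. Leaving out 1 culture gave 9 to 68 that rose and 25 to 183 that fell, and 14 of 31 called named genes lost their call without 20 pmol L6F. Without cells holding a UMI of another cell type the log2 fold change was -0.0026 for Lta, -0.024 for Ccl3, 0.40 for Ifitm3 and 0.042 for Serpina3g. The peptide test gave 5 genes larger and 10 smaller in L6F with all 5 cultures, where it had been 11 and 13. The cause of these changes was not tested. Among genes past the limit at 0.2 pmol, Il12rb2 kept its call in 5 of 15 alternatives, Slc7a1 and Ifitm3 in 7, Cenpe in 8 and Socs1 in 9, and over the other 4 cultures 9 of 28 called named genes with a value lost their call among cells of 6000 to 8000 UMIs. Depth limits single cells to a few Il2ra UMIs and genes under 50 CPM to wide intervals.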
